A study of Mus musculus with 15 samples.

Results

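The genes described are regulators of arterial calcification and of bone- and cartilage-type change in the mouse aorta: Bmp2, Bmp4, Runx2, Sox9, Spp1, Alpl, Mgp, Enpp1, Abcc6 and Tnfrsf11b, 10 genes in all. Every probe set of the array that its annotation assigns to exactly 1 gene, that gene being one of the 10, was taken. This gave 10 probe sets of 7 genes, out of 45037 probe sets and 18193 genes with a probe set of their own. Sox9 had 3 probe sets, Tnfrsf11b had 2, and Bmp2, Bmp4, Alpl, Mgp and Abcc6 had 1 each. Runx2, Spp1 and Enpp1 were not analysed here. Where a gene had several probe sets, the brightest over all arrays stands for it, and the others are given beside it. Genome positions are not given, because the sources used here name no genome build for the array.

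Calcification of the artery wall is an active process in which smooth muscle cells can take on features of bone and cartilage cells. Bone morphogenetic proteins (BMPs) are secreted ligands that drive this change, transcription factors such as Runx2 and Sox9 set the bone and cartilage programmes, and tissue-nonspecific alkaline phosphatase breaks down pyrophosphate, a block to mineral growth. Matrix Gla protein, the pyrophosphate producer Enpp1, the transporter Abcc6 and the decoy receptor osteoprotegerin hold mineral formation or bone-type signalling back. Diabetes and atherosclerosis are both known settings of arterial calcification, and RAGE, a cell surface receptor for sugar-modified proteins and S100 proteins, has been studied in it.

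RNA came from the whole aorta, root to bifurcation, of male C57BL/6 mice aged 9 weeks, with 1 Affymetrix array per mouse and 15 arrays in all. Every mouse lacked Apoe, a lipid carrier whose loss causes atherosclerosis, so the controls carry that deletion too. At 6 weeks of age the mice received 5 daily injections of either streptozotocin at 65 mg/kg, which is toxic to pancreatic beta cells and causes diabetes, or citrate buffer alone. The groups were non-diabetic Apoe null (replicates 5 to 8), diabetic Apoe null (replicates 1 to 4), non-diabetic Apoe/RAGE null (replicates 13 to 15) and diabetic Apoe/RAGE null (replicates 9 to 12). Mice with and without RAGE had different origins, the former bought from a vendor and the latter bred in an academic colony, so genotype and colony cannot be told apart.

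Levels are RMA values on a log2 scale, in which a difference of 1 is a doubling. A level is compared between groups for the same probe set and never with another probe set, whose brightness depends on its own probes. The arrays' medians lay between 4.35 and 4.42, and the number of arrays limits the precision. Over the 15 arrays the mean of 6 smooth muscle markers ranged from 10.99 to 11.65, that of 4 bone markers from 3.32 to 3.87 and that of 6 cartilage markers from 4.15 to 4.64, and these ranges are not set against each other. Bulk RNA cannot tell fewer cells of a type from less RNA per cell. The probe set of Ager, the RAGE gene itself, was not lower in the mice labelled as lacking it. It read 4.17 to 4.69 on the 8 Apoe null arrays, 4.89 to 5.09 on the 3 non-diabetic Apoe/RAGE null arrays, and 4.63, 4.48, 5.36 and 4.95 in diabetic Apoe/RAGE null replicates 9 to 12. Whether its probes lie in the deleted part is not stated, so its level does not show whether RAGE was lost. Replicates 9 and 10 lay within the range of the 8 Apoe null arrays, and replicates 11 and 12 above it. Decr2, a gene on the same chromosome as Ager, separated the labelled genotypes except on 2 arrays. Decr2 read 5.32 to 6.01 on the 8 Apoe null arrays and 6.84 to 6.98 on the 3 non-diabetic Apoe/RAGE null arrays. Among the diabetic Apoe/RAGE null arrays it read 7.40 in replicate 11 and 7.56 in replicate 12, but 5.19 in replicate 9 and 5.10 in replicate 10. For both genes replicates 9 and 10 lay nearer to the Apoe null arrays than to the other Apoe/RAGE null arrays. Whether the labels of these 2 arrays are right was not tested. The groups, and every direction given for RAGE deletion, rest on the labels. Counts and the differences named for the group labelled diabetic Apoe/RAGE null are given with and without replicates 9 and 10.

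No calcification gene passed the test in any comparison. The test was limma over all 15 arrays with Benjamini-Hochberg adjustment over the 45037 probe sets, at an adjusted p under 0.05. For diabetes in Apoe null aorta 0 of 7 genes passed, against 0% of all genes. The 2 genes with an unadjusted p under 0.05 in that comparison, Bmp4 and Abcc6, compare with 13.2% of all genes. For the loss of RAGE in diabetic aorta 0 of 7 passed, against 0.313% of all genes, and 3 had an unadjusted p under 0.05, Bmp2, Bmp4 and Tnfrsf11b, against 17.9% of all genes. With replicates 9 and 10 left out these were 0 against 0.0385%, and 2, Bmp2 and Tnfrsf11b, against 21% of all genes. For the loss of RAGE without diabetes 0 passed against 0%, and only Abcc6 had an unadjusted p under 0.05 among the 7, against 2.62%. For diabetes in Apoe/RAGE null aorta 0 passed against 0%, and only Mgp among the 7 had an unadjusted p under 0.05, against 7.71%. When replicates 9 and 10 were left out both counts were 0 of 7, against 0% and 4.24% of all genes. The differences below are therefore given as values with their errors.

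**Figure D1:**
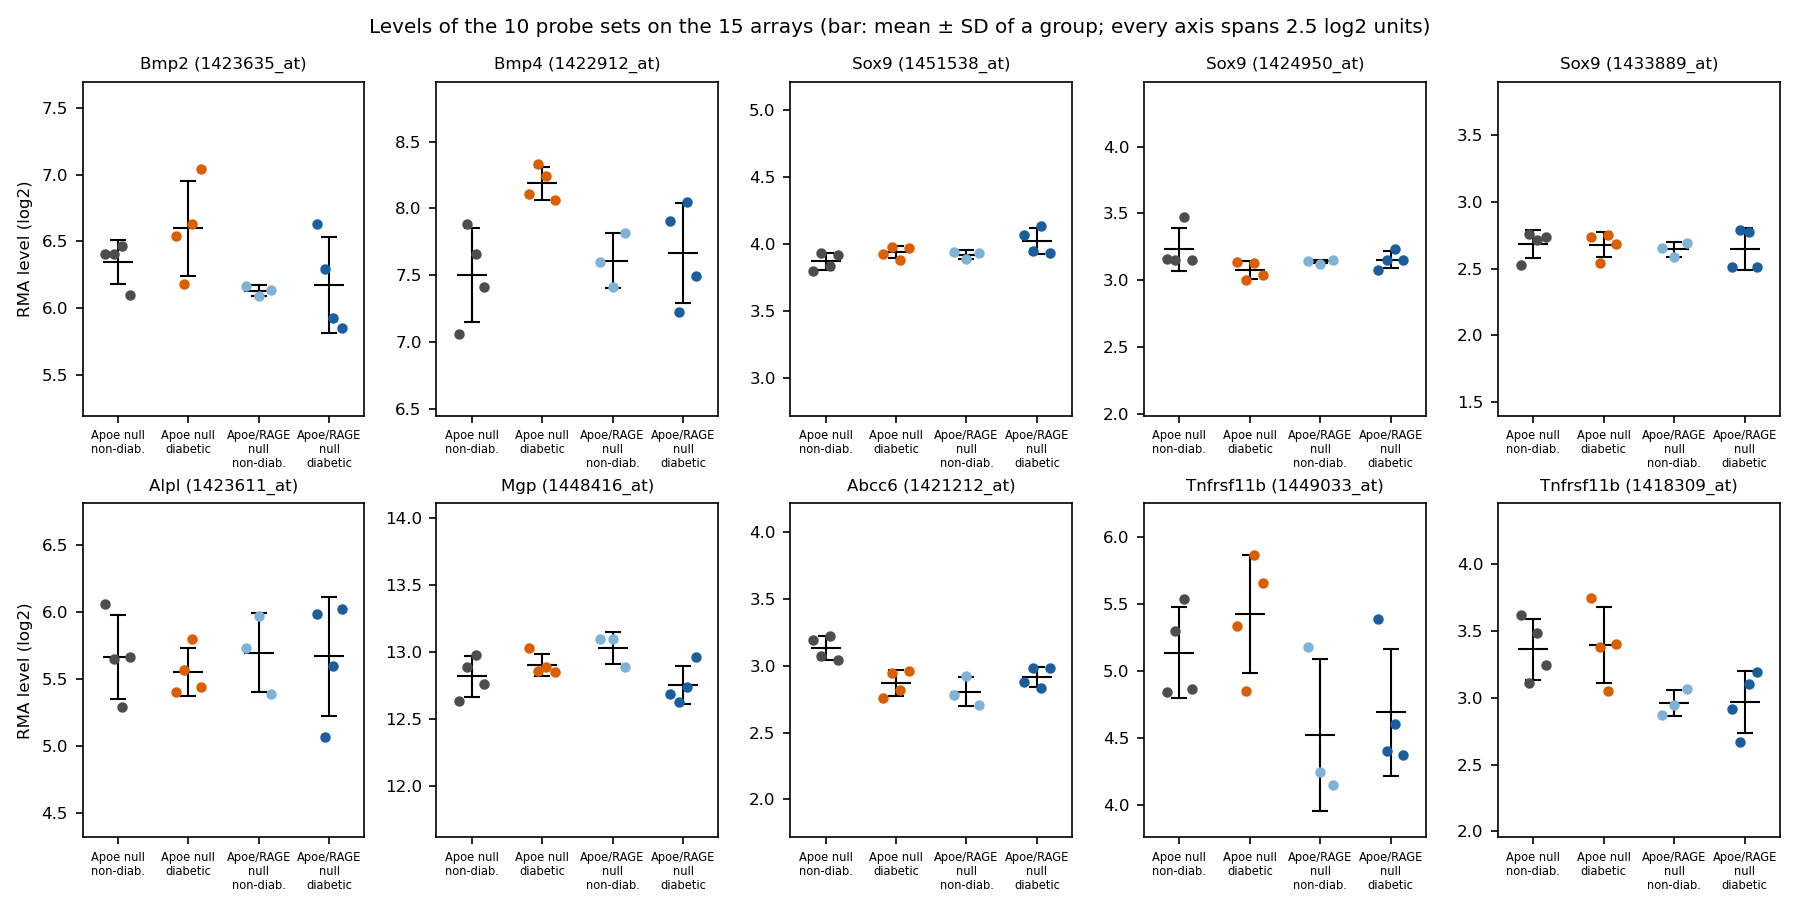
RMA levels (log2) of the 10 probe sets on the 15 arrays, 1 panel per probe set and 1 point per mouse, with the mean and SD of each of the 4 groups as bars. Bmp4 in diabetic Apoe null aortas (8.07 to 8.33) lies above all 4 non-diabetic Apoe null aortas, and Abcc6 is highest in the non-diabetic Apoe null aortas (3.04 to 3.22).

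Of the ligands, Bmp4 is a secreted BMP made in the artery wall by endothelial and other cells. Its probe set 1422912_at read 7.06, 7.88, 7.66 and 7.41 in the 4 non-diabetic Apoe null aortas and 8.11, 8.33, 8.24 and 8.07 in the 4 diabetic Apoe null aortas. Every diabetic aorta of this genotype lay above every non-diabetic one, and the diabetic aortas were also the tightest group. In Apoe/RAGE null mice the levels were 7.60, 7.41 and 7.82 without diabetes and 7.91, 7.23, 8.05 and 7.50 with diabetes. These groups overlapped each other and the non-diabetic Apoe null group, and all 7 lay below the lowest diabetic Apoe null aorta.

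The Bmp4 means were 7.50 ± 0.35 (SD, n = 4) and 8.19 ± 0.12 (SD, n = 4) in non-diabetic and diabetic Apoe null aorta, and 7.61 ± 0.20 (SD, n = 3) and 7.67 ± 0.37 (SD, n = 4) in Apoe/RAGE null aorta. The difference with diabetes in Apoe null aorta was 0.68 ± 0.19 (SE), 1.61-fold, with limma adjusted p = 0.311. In Apoe/RAGE null aorta it was 0.06 ± 0.20 (SE), with a 95% interval from -0.37 to 0.49, and 0.16 without replicates 9 and 10. The level with RAGE deletion in diabetic aorta was lower by a log2 difference of -0.52 ± 0.19 (SE), 0.698-fold, with limma adjusted p = 0.209. The step from diabetic Apoe null to the next group mean was 1.79 pooled SDs, while the other 3 group means lay within 0.371 pooled SDs of their neighbours. The interaction, which is the effect of diabetes in Apoe/RAGE null minus that in Apoe null aorta, was -0.63 ± 0.27 (SE) (limma adjusted p = 0.676). Leaving out replicates 9 and 10, the RAGE deletion value in diabetic aorta was -0.42 ± 0.21 (SE) (limma adjusted p = 0.338) and the interaction -0.52.

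Bmp2, the ligand best known for inducing bone formation, was more scattered. Probe set 1423635_at read 6.41, 6.41, 6.47 and 6.10 in non-diabetic and 6.54, 6.18, 6.63 and 7.04 in diabetic Apoe null aortas. It read 6.17, 6.09 and 6.13 in non-diabetic and 6.63, 6.29, 5.93 and 5.85 in diabetic Apoe/RAGE null aortas. The highest value belonged to diabetic Apoe null replicate 4, and among diabetic Apoe/RAGE null mice replicates 9 and 10 lay within the Apoe null range while replicates 11 and 12 lay below every other aorta.

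The Bmp2 difference with diabetes in Apoe null aorta was 0.25 ± 0.18 (SE), with a 95% interval from -0.13 to 0.64. With RAGE deletion it was -0.21 ± 0.19 (SE) without diabetes and -0.42 ± 0.18 (SE) with diabetes, the latter 0.746-fold (limma adjusted p = 0.284). The last value depended on single arrays: it was -0.27 without replicate 4 and -0.57 without replicate 9. Leaving out both replicates 9 and 10 made it -0.71 ± 0.18 (SE), with limma adjusted p = 0.112. The effect of diabetes in Apoe/RAGE null aorta turned from 0.05 to -0.24 when they were left out. No effect of diabetes on Bmp2 passed the test in either genotype.

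Sox9, the master transcription factor of cartilage cells, was dim. Its 3 probe sets averaged 3.94 (1451538_at), 3.15 (1424950_at) and 2.66 (1433889_at), at the 44.2, 29.8 and 16.1 percentiles of all probe sets. The brightest read 3.80, 3.93, 3.84 and 3.91 in non-diabetic Apoe null and 3.93, 3.98, 3.88 and 3.97 in diabetic Apoe null aortas. In Apoe/RAGE null aortas it read 3.94, 3.89 and 3.93 without diabetes and 4.07, 3.95, 4.13 and 3.93 with diabetes. All 15 arrays thus lay close together, and neighbouring groups overlapped.

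The pooled SD of that Sox9 probe set within groups, 0.07, was at the 1.06 percentile of all probe sets. Its mean lay below the medians of the arrays, where RMA values carry much background and understate true ratios. The small spread and narrow intervals therefore do not limit how far Sox9 RNA itself may have differed. Its difference with diabetes was 0.07 ± 0.07 (SE) in Apoe null aorta, with a 95% interval from -0.08 to 0.21, and 0.10 ± 0.07 (SE) in Apoe/RAGE null aorta, or 0.11 without replicates 9 and 10. The second probe set, 1424950_at, differed the other way in Apoe null aorta, by -0.16 ± 0.08 (SE) (limma adjusted p = 0.505). It read 3.16, 3.15, 3.47 and 3.15 without and 3.14, 3.00, 3.13 and 3.04 with diabetes. The groups did not overlap, but the gap was narrow, from 3.14 to 3.15, and replicate 7 alone gave the 3.47. Over all probe sets 6.07% were without overlap in this comparison. This probe set was dim, where RMA values carry much background. The probe sets of Sox9 thus disagreed in sign for diabetes in Apoe null aorta. The third, 1433889_at, differed by -0.01 there.

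Alpl encodes the alkaline phosphatase that removes pyrophosphate and is a standard marker of mineralizing cells. Probe set 1423611_at read 6.06, 5.65, 5.29 and 5.66 in non-diabetic and 5.40, 5.57, 5.80 and 5.44 in diabetic Apoe null aortas. It read 5.73, 5.97 and 5.39 in non-diabetic and 5.98, 5.07, 5.60 and 6.02 in diabetic Apoe/RAGE null aortas. All 4 groups overlapped, and the diabetic Apoe/RAGE null group held both the lowest and the second highest aorta.

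The 4 Alpl group means fell between 5.55 and 5.70, and each step in their order was at most 0.347 pooled SDs. The difference with diabetes was -0.11 ± 0.21 (SE) in Apoe null aorta, with a 95% interval from -0.55 to 0.33, and -0.03 ± 0.22 (SE) in Apoe/RAGE null aorta, with an interval from -0.51 to 0.45. With RAGE deletion it was 0.03 ± 0.22 (SE) without diabetes and 0.12 ± 0.21 (SE) with diabetes. With replicates 9 and 10 left out the values that use the diabetic Apoe/RAGE null group were 0.11 for diabetes and 0.26 for RAGE deletion. The 95% intervals are the ranges of difference that these values allow, not a limit of detection.

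Mgp, matrix Gla protein, is the vitamin K dependent inhibitor of calcification that smooth muscle secretes in large amounts. Its probe set 1448416_at was among the brightest of the array, with only 9 of the 45037 probe sets brighter on average. It read 12.63, 12.89, 12.98 and 12.76 in non-diabetic Apoe null and 13.03, 12.86, 12.89 and 12.85 in diabetic Apoe null aortas. In Apoe/RAGE null aortas it read 13.10, 13.10 and 12.89 without diabetes and 12.68, 12.63, 12.74 and 12.96 with diabetes. In that genotype 3 of the 4 diabetic aortas lay below all non-diabetic ones, and replicate 12 lay among them.

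The Mgp difference with diabetes was 0.09 ± 0.10 (SE) in Apoe null aorta and -0.28 ± 0.10 (SE) in Apoe/RAGE null aorta, the latter 0.826-fold (limma adjusted p = 0.674). The interaction was -0.36 ± 0.14 (SE) (limma adjusted p = 0.675). Every diabetic Apoe null aorta lay above the non-diabetic mean of its genotype, and every diabetic Apoe/RAGE null aorta below that of its own. The share of all genes with such a pattern was not counted. With replicates 9 and 10 left out the difference in Apoe/RAGE null aorta was -0.18 (limma adjusted p = 0.999) and the interaction -0.27 (limma adjusted p = 0.628). RAGE deletion gave 0.21 ± 0.10 (SE) without diabetes (limma adjusted p = 1) and -0.15 ± 0.10 (SE) with diabetes (limma adjusted p = 0.49), the latter -0.06 without the same 2 replicates.

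Abcc6 is the transporter whose loss causes ectopic mineralization, and it acts mainly in the liver. Probe set 1421212_at was dim, at the 24.4 percentile of all probe sets. It read 3.19, 3.07, 3.22 and 3.04 in non-diabetic Apoe null and 2.76, 2.94, 2.82 and 2.96 in diabetic Apoe null aortas. In Apoe/RAGE null aortas it read 2.78, 2.92 and 2.71 without diabetes and 2.87, 2.98, 2.83 and 2.98 with diabetes. The 4 non-diabetic Apoe null aortas were above all 11 others, which overlapped among themselves.

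The Abcc6 difference with diabetes in Apoe null aorta was -0.26 ± 0.08 (SE), 0.833-fold, with limma adjusted p = 0.34. In Apoe/RAGE null aorta it was 0.11 ± 0.08 (SE), or 0.10 without replicates 9 and 10. RAGE deletion without diabetes gave -0.33 ± 0.08 (SE), 0.796-fold, with limma adjusted p = 1, and with diabetes 0.05 ± 0.08 (SE), or 0.04 without replicates 9 and 10. The interaction was 0.38 ± 0.12 (SE) (limma adjusted p = 0.675), and without replicates 9 and 10 it was 0.37 (limma adjusted p = 0.575). The first step in the order of group means was 2.34 pooled SDs, from non-diabetic Apoe null to diabetic Apoe/RAGE null, and the later steps were at most 0.710. At this brightness RMA values carry much background and understate true ratios, and these comparisons share the non-diabetic Apoe null arrays.

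Tnfrsf11b encodes osteoprotegerin, the soluble decoy receptor that binds RANK ligand and keeps it from its receptor on osteoclast precursors. Probe set 1449033_at read 4.84, 5.30, 5.54 and 4.87 in non-diabetic Apoe null and 5.34, 4.85, 5.87 and 5.66 in diabetic Apoe null aortas. It read 5.18, 4.25 and 4.15 in non-diabetic and 5.39, 4.40, 4.61 and 4.37 in diabetic Apoe/RAGE null aortas. Of the 7 Apoe/RAGE null aortas 5 lay below every Apoe null aorta, and replicates 13 and 9, 1 in each disease state, lay among them.

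The Tnfrsf11b means were 5.14 ± 0.34 (SD, n = 4) and 5.43 ± 0.44 (SD, n = 4) without and with diabetes in Apoe null aorta, and 4.52 ± 0.57 (SD, n = 3) and 4.69 ± 0.48 (SD, n = 4) in Apoe/RAGE null aorta. RAGE deletion gave -0.61 ± 0.31 (SE) without diabetes (limma adjusted p = 1) and -0.74 ± 0.28 (SE) with diabetes, 0.601-fold (limma adjusted p = 0.241). Without replicates 9 and 10 the latter was -0.94 ± 0.31 (SE) (limma adjusted p = 0.17). The value without diabetes rests on few arrays: it was -0.94 without replicate 13 and -0.43 without replicate 15.

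The dimmer probe set of Tnfrsf11b, 1418309_at, had the same sign in both genotype comparisons. It was at the 30.6 percentile of all probe sets, where RMA values carry much background, as for Abcc6. It read 3.62, 3.11, 3.48 and 3.24 in non-diabetic and 3.74, 3.38, 3.05 and 3.40 in diabetic Apoe null aortas. It read 2.87, 2.94 and 3.06 in non-diabetic and 2.92, 2.67, 3.10 and 3.19 in diabetic Apoe/RAGE null aortas. The non-diabetic groups did not overlap and the diabetic ones did. RAGE deletion gave -0.41 ± 0.16 (SE) without diabetes (limma adjusted p = 1) and -0.42 ± 0.15 (SE) with diabetes (limma adjusted p = 0.207). The latter was -0.25 ± 0.17 (SE) without replicates 9 and 10 (limma adjusted p = 0.522), so the probe sets moved in opposite ways when these arrays were left out. The effect of diabetes was 0.29 ± 0.28 (SE) in Apoe null and 0.17 ± 0.31 (SE) in Apoe/RAGE null aorta for the brighter probe set, and its interaction -0.12 ± 0.42 (SE). Without replicates 9 and 10 the last 2 values were -0.03 and -0.32. For the dimmer probe set the effect of diabetes was 0.03 ± 0.15 (SE) in Apoe null and 0.01 ± 0.16 (SE) in Apoe/RAGE null aorta, and its interaction -0.02. Leaving out replicates 9 and 10 made the last 2 of these 0.19 and 0.16, opposite in sign to the brighter probe set.

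A contrast of the genotypes averaged over both disease states was added after these values were seen. It gave -0.67 ± 0.21 (SE) for the brighter Tnfrsf11b probe set (limma adjusted p = 0.352) and -0.41 ± 0.11 (SE) for the dimmer (limma adjusted p = 0.287). For Bmp2 it gave -0.32 ± 0.13 (SE) (limma adjusted p = 0.492). Leaving out replicates 9 and 10 made these values -0.78 for the brighter Tnfrsf11b probe set, -0.33 for the dimmer and -0.46 for Bmp2. It gave 0 called genes among the 7, against 0% of all genes, and 3 with an unadjusted p under 0.05, the other being Abcc6, against 10.7% of all genes. After removal of replicates 9 and 10 these shares of all genes were 0.115% and 15.7%, and the counts were again 0 and the same 3 genes. The matching contrast of diabetes averaged over genotypes gave 0.37 ± 0.14 (SE) for Bmp4 (limma adjusted p = 0.425) and 0.42 without replicates 9 and 10, with 0 of 7 genes called against 0.0055% of all genes and 1 of 7 at an unadjusted p under 0.05 against 11.7%. On removing replicates 9 and 10 the counts were again 0 and 1, the latter being Bmp4, against 0% and 6.41% of all genes.

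**Figure D2:**
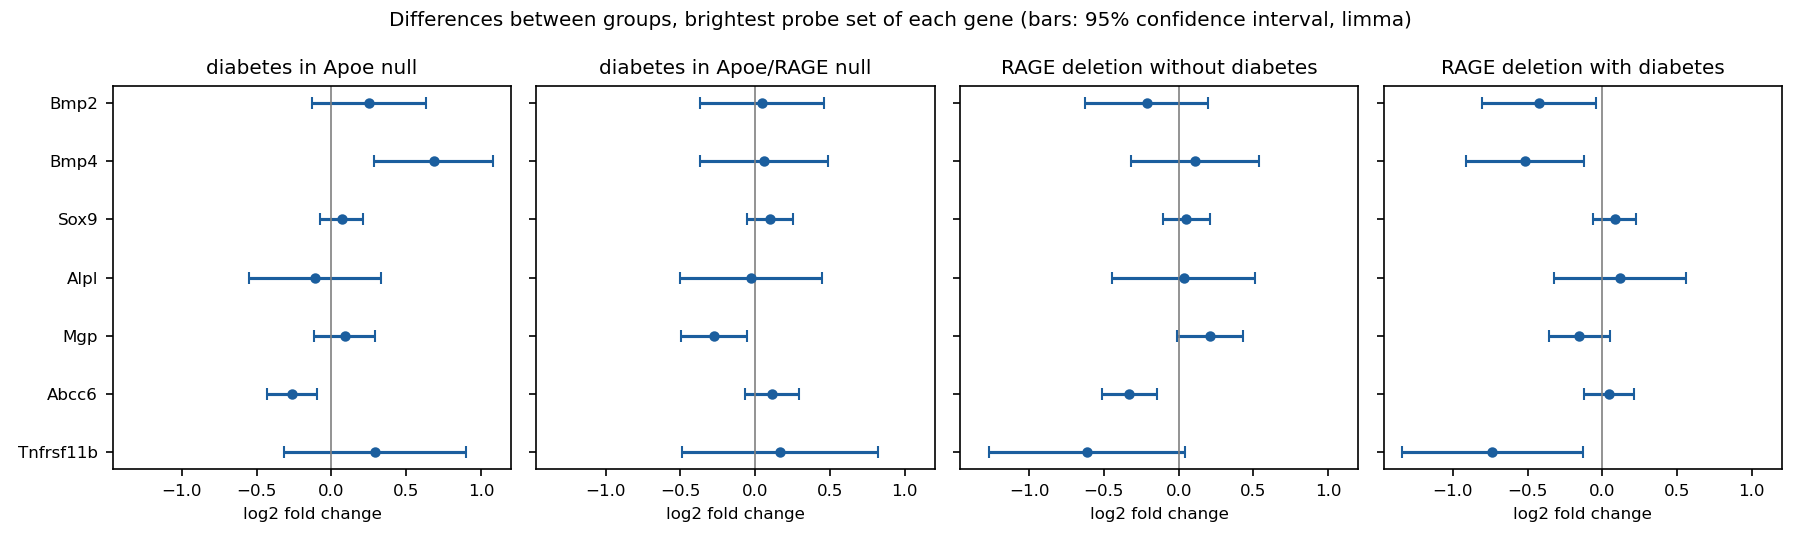
Differences between groups (log2 fold change) of the 7 genes in the 4 comparisons of the design, as points with 95% confidence intervals from limma; the vertical line marks no difference. The intervals of Bmp4 (0.29 to 1.08) and Abcc6 (-0.43 to -0.10) lie to 1 side of the line for diabetes in Apoe null aorta, although neither difference passed after adjustment.

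Considered together, the 7 genes did not move one way. Their median difference was 0.09 for diabetes in Apoe null aorta, against -0.00 over all genes, with 5 positive and 2 negative. It was 0.03 for RAGE deletion without diabetes against 0.00 over all genes, 0.06 for diabetes in Apoe/RAGE null aorta against -0.02, and -0.15 for RAGE deletion in diabetic aorta against -0.00. The last 2 medians without replicates 9 and 10 were 0.10 and -0.06, against -0.01 over all genes in each. Groups did not overlap for 2 of 7 genes with diabetes in Apoe null aorta, against 7.62% of all genes, and for 1 of 7 with RAGE deletion without diabetes, against 4.87%. They overlapped for all 7 with diabetes in Apoe/RAGE null aorta, against 6.68% of all genes without overlap, and 1 of 7 was without overlap for RAGE deletion in diabetic aorta, against 7.73%. Removing replicates 9 and 10, which leaves 2 arrays in the group, gave 1 of 7 without overlap, Bmp2, in the former comparison, against 19.5% of all genes. In the latter 3 of 7 were, Bmp2, Bmp4 and Tnfrsf11b, against 28%. The comparisons share groups: non-diabetic Apoe null arrays enter both the first and the second, and diabetic Apoe null arrays the first and the fourth.

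Markers of other tissues in the samples also varied between the same groups. The mean of 3 brown adipocyte markers was 8.48 to 10.29 in diabetic and 10.28 to 11.08 in non-diabetic Apoe null aortas. All 3 had an unadjusted p under 0.05, against 13.2% of all genes. The mean of 6 skeletal muscle markers was 7.78 to 9.53 in diabetic Apoe/RAGE null aortas, 5.19 to 8.46 in diabetic Apoe null, 4.14 to 7.99 in non-diabetic Apoe null and 3.90 to 5.13 in non-diabetic Apoe/RAGE null aortas. Of these 6 genes 5 had an unadjusted p under 0.05 for diabetes in Apoe/RAGE null aorta, against 7.71% of all genes. For RAGE deletion in diabetic aorta 4 did, against 17.9%. Without replicates 9 and 10 these counts were 6 and 2, against 4.24% and 21%. The mean of 6 macrophage markers was 7.44 to 8.54 in diabetic and 7.13 to 7.48 in non-diabetic Apoe/RAGE null aortas. Of the 6, 4 had an unadjusted p under 0.05, against 7.71% of all genes, or 2 without replicates 9 and 10, against 4.24%. In Apoe null aortas the macrophage mean was 7.43 to 8.04 with and 7.28 to 7.55 without diabetes. Only 1 of the 6, Cd68, had an unadjusted p under 0.05, against 13.2% of all genes. Cd68 read 5.73 to 6.51 with and 5.29 to 5.61 without diabetes in that genotype, and Lyz2 9.81 to 10.55 against 9.11 to 9.57. Both were without overlap, as were 7.62% of all genes. Replicates 9 and 10 lay at 8.23 and 7.78 for the skeletal muscle markers, below replicates 11 and 12 at 8.73 and 9.53. None of these markers passed the adjusted test, and their part in the values of the calcification genes was not tested.

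The wider machinery of BMP signalling and mineral control was read from 8 lists. They hold 91 gene symbols, Ank and Ankh being names of the same gene, and 82 were measured. They cover BMP receptors and Smads, BMP antagonists, BMP target genes, other BMP ligands, bone and cartilage matrix and factors, phosphate and pyrophosphate handling, mineralization inhibitors, and the RANK ligand axis. These names are working labels, and not every gene has the role its list is named for. Bmp1, under other BMP ligands, is a protease. Of the 82, 0 passed the adjusted test in any comparison. With an unadjusted p under 0.05, 12 were higher and 2 lower for diabetes in Apoe null aorta, which is 14.6% and 2.44%, against 7.27% and 5.94% of all genes. For RAGE deletion without diabetes these counts were 0 and 1, against 1.34% and 1.28% of all genes. For diabetes in Apoe/RAGE null aorta they were 5 and 9, against 3.74% and 3.97%, and 2 and 4 without replicates 9 and 10, against 2.43% and 1.81%. For RAGE deletion in diabetic aorta they were 6 and 22, 7.32% and 26.8%, against 6.62% and 11.3% of all genes, and 8 and 16 without replicates 9 and 10, against 10.6% and 10.4%.

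For diabetes in Apoe null aorta the 4 list genes with the smallest p were Chrdl1, Acvr1, Col2a1 and Acp5. Chrdl1, a secreted BMP antagonist, read 6.16 ± 0.22 (SD, n = 4) without and 6.79 ± 0.12 (SD, n = 4) with diabetes, a difference of 0.64 ± 0.17 (SE) (limma adjusted p = 0.31) without overlap. Acvr1, a type I receptor for BMPs, read 7.50, 7.94, 7.94 and 7.89 without and 8.39, 8.11, 8.29 and 8.06 with diabetes. Its groups did not overlap, and the difference was 0.40 ± 0.12 (SE) (limma adjusted p = 0.332). Over all genes 7.62% were without overlap, and picking genes by a small p favours such groups. Acp5, the tartrate-resistant phosphatase of osteoclasts and some macrophages, differed by -0.996 ± 0.317 (SE) (limma adjusted p = 0.347) with overlapping groups. Col2a1, the main cartilage collagen, was dim and differed by -0.39 ± 0.12 (SE) (limma adjusted p = 0.347).

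The BMP target genes, which BMP receptors switch on through Smads, are the readout nearest to the ligands. Of the 10, 8 had a positive difference for diabetes in Apoe null aorta, with a median of 0.28 against -0.00 over all genes, and 3 had an unadjusted p under 0.05, against 13.2% of all genes. Their names are Id2, Id4 and Smad6, given after their values were seen: Id2, an inhibitor of differentiation, differed by 0.67 ± 0.23 (SE) (limma adjusted p = 0.368). All 8 measured genes of the mineralization inhibitor list were positive in the same comparison, with a median of 0.17 against -0.00 over all genes. They were Ahsg, Fetub, Gas6, Axl, Ggcx, Vkorc1, Car2 and Tgm2, counted by list and not by a role shown here. Of these, 2 had an unadjusted p under 0.05, against 13.2% of all genes. The macrophage markers Cd68 and Lyz2 were also higher without overlap in that comparison, and their part in these values was not tested. For RAGE deletion in diabetic aorta all 10 BMP target genes were negative, with a median of -0.33 against -0.00 over all genes. Of them 3 had an unadjusted p under 0.05, against 17.9% of all genes. Over all genes more were lower than higher at that p, 11.3% against 6.62%. Without replicates 9 and 10 all 10 BMP target genes were still negative, with a median of -0.30 against -0.01 over all genes. However, 0 had an unadjusted p under 0.05, against 21% of all genes. The 2 comparisons share the diabetic Apoe null arrays. The share of all genes of each sign was not counted, and whether BMP signalling differed was not tested.

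**Figure D3:**
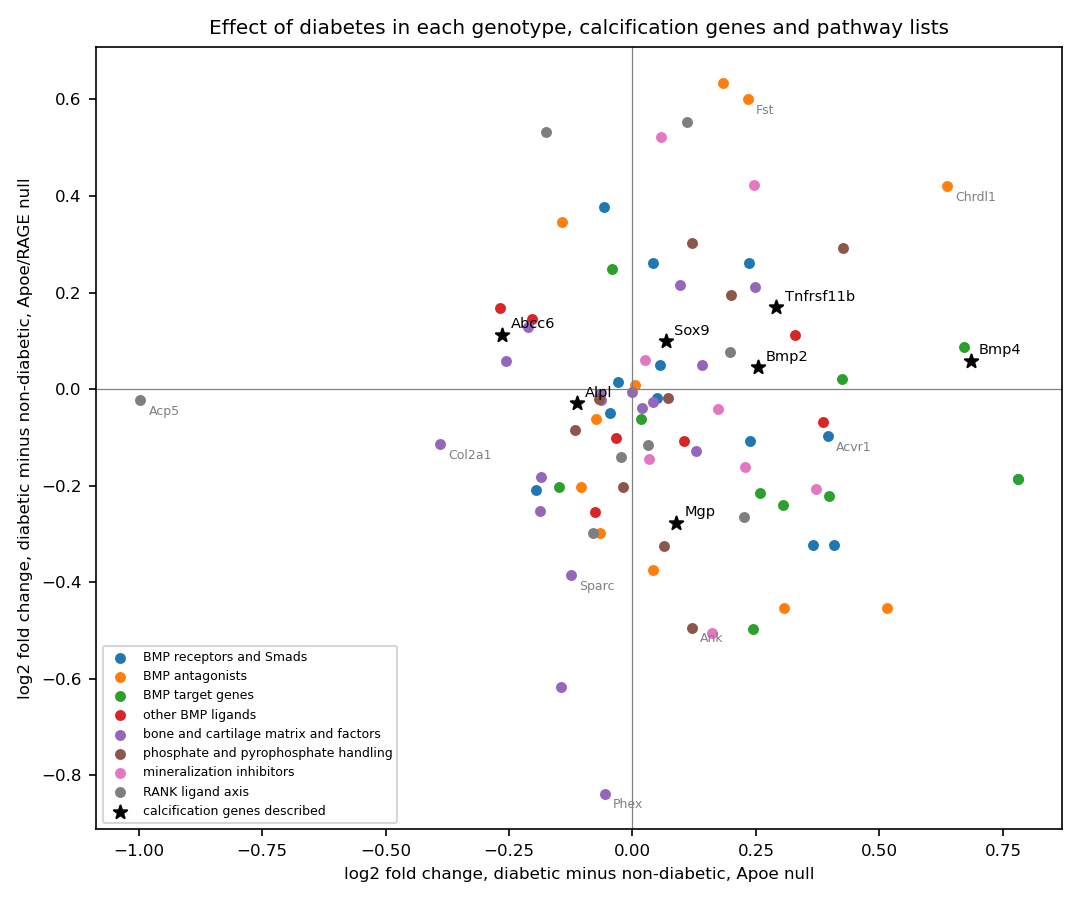
Log2 fold change with diabetes in Apoe/RAGE null aorta against that in Apoe null aorta, 1 point per gene of the 8 lists, coloured by list, with the 7 calcification genes as stars. Bmp4 (0.68, 0.06) lies far to the right near the horizontal line, Mgp (0.09, -0.28) below it, and labelled list genes are those with the smallest p in either comparison.

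For RAGE deletion in diabetic aorta the list genes with the smallest p were Vkorc1, Sost, Ank and Ggcx, with Phex level with Ggcx at a limma adjusted p of 0.0961. Vkorc1 recycles vitamin K, and Ggcx uses it to carboxylate matrix Gla protein, the step that makes the inhibitor active. Vkorc1 read 9.81, 9.63, 10.02 and 9.98 in diabetic Apoe null and 9.32, 9.44, 9.47 and 9.44 in diabetic Apoe/RAGE null aortas. The groups did not overlap, and the difference was -0.44 ± 0.10 (SE) (limma adjusted p = 0.0715). Over all genes 7.73% were without overlap in this comparison. The genes named here were picked by their small p in it, which favours groups without overlap. Ggcx read 6.38, 6.01, 6.32 and 6.12 against 5.29, 5.19, 5.83 and 5.93, again without overlap, a difference of -0.65 ± 0.16 (SE) (limma adjusted p = 0.0961). Replicates 9 and 10 gave the lowest Ggcx values, and without them its difference was -0.33 ± 0.14 (SE) (limma adjusted p = 0.277). That of Vkorc1 was -0.40 ± 0.13 (SE) without them (limma adjusted p = 0.15).

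Ank, the membrane protein that exports pyrophosphate, read 8.98, 8.77, 8.70 and 8.80 in diabetic Apoe null and 8.18, 8.23, 8.35 and 8.60 in diabetic Apoe/RAGE null aortas. Every aorta of the first group lay above every one of the second, and the difference was -0.47 ± 0.11 (SE) (limma adjusted p = 0.0873). Without replicates 9 and 10 it was -0.34 ± 0.13 (SE) (limma adjusted p = 0.227). Sost, which encodes sclerostin, a secreted antagonist of bone formation, read 11.40, 10.95, 11.28 and 10.92 against 9.44, 9.45, 10.33 and 10.57. Here too the groups did not overlap and replicates 9 and 10 were the lowest. The Sost difference was -1.19 ± 0.27 (SE) (limma adjusted p = 0.0793), and -0.69 ± 0.26 (SE) without replicates 9 and 10 (limma adjusted p = 0.214). The skeletal muscle markers given above were highest in the same group. For RAGE deletion in diabetic aorta all 3 brown adipocyte markers were higher at an unadjusted p under 0.05, against 6.62% of all genes. Lower were 2 of 6 smooth muscle and 2 of 4 fibroblast markers, against 11.3%. Without replicates 9 and 10 these counts were 3, 1 and 0, against 10.6% higher and 10.4% lower. The part of these markers in the values of Vkorc1, Ggcx, Ank and Sost was not tested.

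**Figure D4:**
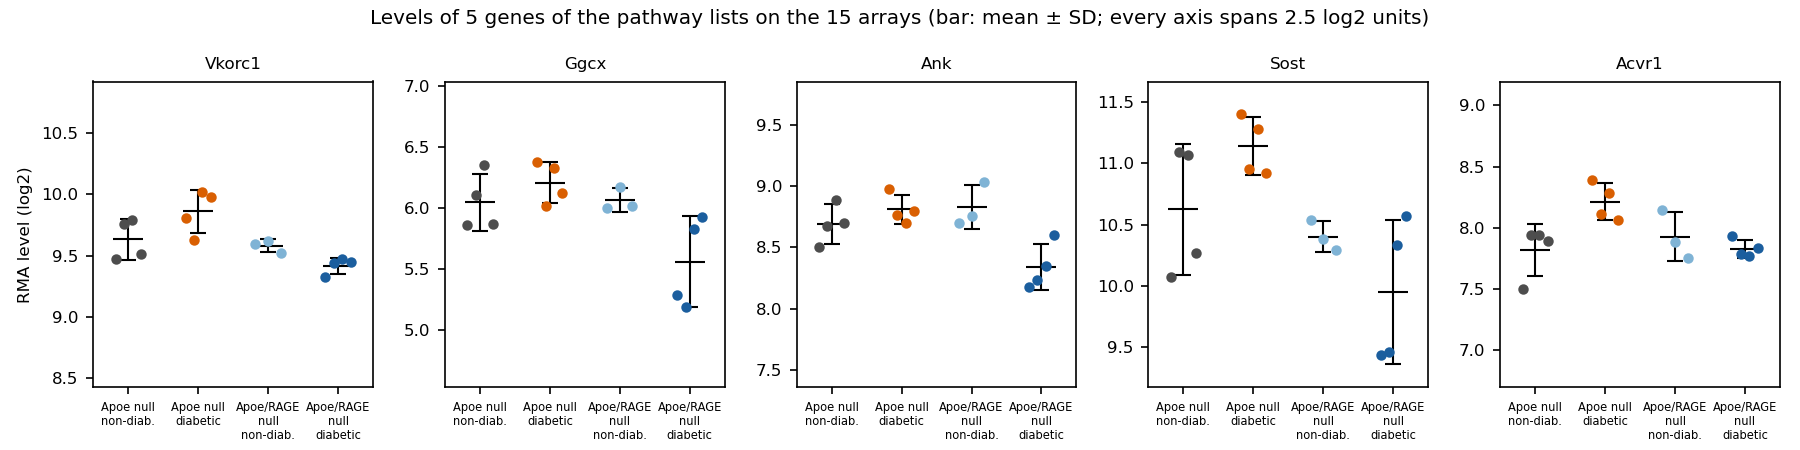
RMA levels (log2) of Vkorc1, Ggcx, Ank, Sost and Acvr1 on the 15 arrays, 1 point per mouse, with the mean and SD of each of the 4 groups as bars. In all 5 panels the 4 diabetic Apoe/RAGE null aortas lie below the 4 diabetic Apoe null aortas, whereas 7.73% of all genes were without overlap. Vkorc1, Ggcx, Ank and Sost were picked by their small p in this comparison. Acvr1 was picked in one that shares the diabetic Apoe null arrays. Such a choice favours groups without overlap.

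In the other comparisons the list genes named by the smallest p did not pass either. For diabetes in Apoe/RAGE null aorta they were Ank, with -0.49 ± 0.12 (SE) (limma adjusted p = 0.674), Phex with -0.84, Fst with 0.60 and Sparc with -0.39. Without replicates 9 and 10 these values were -0.36, -0.67, 0.36 and -0.25. For RAGE deletion without diabetes, Dlx5, a BMP-induced homeobox factor, differed by -0.42 ± 0.14 (SE) (limma adjusted p = 1), Comp by -0.36, Col2a1 by -0.27 and Ahsg, the circulating mineral inhibitor fetuin-A, by 0.43. For the interaction 0 of the 7 calcification genes were called, against 0% of all genes, and 3 of them had an unadjusted p under 0.05, Abcc6, Bmp4 and Mgp, against 8.57%. Leaving out replicates 9 and 10, these were 0 against 0%, and only Abcc6 among the 7, against 11% of all genes. Of the 82 list genes 1 was positive and 14 negative at an unadjusted p under 0.05 for the interaction, 1.22% and 17.1%, against 2.41% and 6.16% of all genes, and 4 and 7 without replicates 9 and 10, against 5.31% and 5.65%. Ank led with -0.61 ± 0.17 (SE) (limma adjusted p = 0.675), followed by Twsg1 with -0.76, Acvr1 with -0.49 and Ggcx with -0.67, and without replicates 9 and 10 these were -0.48, -0.65, -0.52 and -0.35.

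Across the 15 arrays the gene most like Bmp4 among 9775 genes with a mean of at least 5 was Dennd5b, with a Pearson correlation of 0.873, followed by Dact1 with 0.866 and Fgfr3 with 0.862. The genes most like Tnfrsf11b were Scara3 with 0.909, Thra with 0.889 and Ptprz1 with 0.885. Bmp2 was most like Creb3, with 0.939, Mtmr3, with 0.935, and Cnot4, with 0.917. Mgp was most like Vps26a, with 0.926, B4gat1, with 0.915, and Ulk2, with 0.897. The genes most like Abcc6 reached only 0.772 (Ifnar1), 0.768 (Asb6) and 0.674 (Gtf2h4). The 15 points of each correlation share their arrays and fall into 4 groups, so these values are descriptions of these arrays.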

How the data were processed

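RNA of 15 mouse aortas was measured on Affymetrix arrays, 1 per mouse. The authors computed RMA levels on a log2 scale and deposited 1 value per probe set and array; the submitters' processing notes name RMA and no version, and the design text does not say whether RMA ran once over all arrays or group by group. One planned non-diabetic Apoe/RAGE null aorta yielded no cRNA, per the series' design text. Of 45101 probe sets 64 controls were set aside. By the array annotation 34945 others carried 1 gene, 932 several and 9160 none. limma 3.58.1 (R 4.3.3) was fitted to the values as deposited, with a mean for each group and all 15 arrays sharing the estimate of spread, and p-values were adjusted by Benjamini-Hochberg over 45037 probe sets at 0.05. They measure the spread between mice as labelled.

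The 10 genes, the 8 pathway lists and the marker lists were chosen with earlier results of these data known. Each comparison names up to 4 list genes with the smallest p, and up to 3 genes of like pattern by Pearson correlation. On simulated data with known changes the fit recovered, for diabetes in Apoe null aorta, 32% of differences of 0.5 and 84% of 1 (log2) over 45037 probe sets, and 5.16% of its calls were false. The changed probe sets were drawn at random, with independent noise of their own spread. Tnfrsf11b (1449033_at), Alpl, Bmp4 and Bmp2 had pooled SDs at the 96.2, 90.5, 87 and 85.6 percentiles, so these shares do not hold for them. Mgp, Abcc6 and Sox9 (1451538_at) were at 26.9, 7.18 and 1.06. Alternatives tried were the threshold of B above 0 that the submitters used, a fit of the compared groups alone, removal of dim probe sets, array weights, quantile normalization, centring of each array on its median, a variance model with trend and robust moderation, averaging of a gene's probe sets, and removal of each array, or of replicates 9 and 10 together. Contrasts averaged over genotype or disease state, and the counts over members, lists and markers without replicates 9 and 10, were added after seeing the data. Plots used matplotlib 3.10.9 (Python 3.11.15).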

Additional observations from a re-analysis of the deposited data

Results flagged for a closer look

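Among 30 groups of 4 arrays examined, 2 held an array far from the others, where chance gives about 1 in 20. Bmp2 was low in non-diabetic Apoe null replicate 8, at 6.10, against 6.41 in the nearest of the other 3. On that array the mean of 4 cardiac muscle markers was 11.56, against 5.69 to 7.41 in the other 3. Its mean of the 6 skeletal muscle markers was 7.99, against 4.14 to 5.32. The part of such tissue in the Bmp2 value was not tested. The dimmer Sox9 probe set 1424950_at was high in non-diabetic Apoe null replicate 7, at 3.47, against 3.16 in the nearest.

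Mgp and Abcc6 stood out because every diabetic aorta moved one way from the non-diabetic mean in Apoe null mice and the other way in Apoe/RAGE null mice. The interaction was -0.36 for Mgp and 0.38 for Abcc6, and both had a limma adjusted p of 0.675, so the difference between the genotypes did not pass.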

How the results depend on the processing

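None of the 7 genes was called in any comparison under any alternative that was run. Of 399 fold changes under alternatives other than single left-out arrays 390 kept their direction, 9 turned and 0 passed the threshold. With array weights Alpl turned to 0.0047 for diabetes in Apoe null aorta, Bmp4 to -0.0777 for RAGE deletion without diabetes, and the interactions of Alpl and Tnfrsf11b to -0.0792 and 0.0873. With the mean of its probe sets Sox9 turned to -0.0313 for diabetes in Apoe null aorta and to -0.0277 for RAGE deletion without diabetes. Without replicates 9 and 10 diabetes in Apoe/RAGE null aorta gave -0.24 for Bmp2, 0.11 for Alpl and -0.0331 for Tnfrsf11b. The cause was not tested. Of 735 fold changes with 1 array left out 23 turned and 0 passed. With single arrays left out, Alpl ran from -0.24 to 0.0199 for diabetes in Apoe null aorta, -0.11 to 0.19 for RAGE deletion without diabetes, -0.18 to 0.17 for diabetes in Apoe/RAGE null aorta, -0.0010 to 0.32 for RAGE deletion with diabetes, -0.0715 to 0.28 for the interaction and -0.15 to 0.0292 for diabetes averaged over genotypes. Bmp4 ran from -0.0391 to 0.23 for RAGE deletion without diabetes and -0.0664 to 0.21 for diabetes in Apoe/RAGE null aorta, where Bmp2 ran from -0.11 to 0.15 and Tnfrsf11b from -0.0627 to 0.50. The interaction of Tnfrsf11b ran from -0.35 to 0.20 and that of Sox9 from -0.0055 to 0.0605, and Mgp from -0.0050 to 0.0642 for RAGE deletion averaged over disease states. No paired analysis was possible because no replicate number occurs in 2 groups. The number of arrays limits the precision.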
